A study of Mus musculus with 12 samples.

Results

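NF-kB is a family of dimeric transcription factors, and its subunits and inhibitors were followed here in cultured adipocytes in which the DNA methyltransferase Dnmt3a was raised or lowered. Genes were taken by symbol from the deposited count table: the 5 subunits Rela, Nfkb1, Relb, Nfkb2 and Rel, the inhibitors Nfkbia, Nfkbib, Nfkbie and Nfkbiz, and the deubiquitinase Tnfaip3. Of these 10 genes, 9 were found among the 27473 features of the table, each on 1 feature. No row carried the symbol Nfkbiz. A row named IkappaB-zeta, the name of the protein that Nfkbiz encodes, is reported under its own name and is not counted among the 9.

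RNA-seq was done on 12 libraries of 3T3-L1 cells, a mouse fibroblast line that turns into fat-storing adipocytes under dexamethasone, IBMX and insulin. Lentivirus was added on day 8 of differentiation, and the cells were harvested for RNA 4 days later. By the labels the virus stayed on the cells for 2 days, whereas the study's methods give a shorter time. The libraries fall into 4 groups of 3. The GFP group received GFP in the pCDH expression vector, and the Dnmt3a group received Dnmt3a in the same vector. The shScr group received a scrambled hairpin, and the shDnmt3a group a hairpin against Dnmt3a. All groups thus carried lentivirus, and no group was left without it. Nothing in the labels ties the 3 libraries of a group to cultures of their own, and the p-values therefore cover the spread among libraries, part of which can be technical. The labels do not name the hairpin. The study asked what Dnmt3a does to gene expression in adipocytes, by gain and by loss of it.

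In the canonical pathway, ligands such as TNF and interleukin 1 or microbial products bind their receptors, adaptors recruit the IkB kinase complex, and the kinase marks IkB proteins for destruction. Rela and Nfkb1 (p65 and p50), or Rel in some cells, then enter the nucleus. In the non-canonical pathway, the kinase NIK (Map3k14) leads to processing of Nfkb2 (p100) to p52, which acts with Relb. IkB alpha, IkB beta and IkB epsilon (Nfkbia, Nfkbib, Nfkbie) hold dimers back, IkB zeta works in the nucleus, and A20 (Tnfaip3) edits ubiquitin chains on upstream adaptors. Several of these genes are known NF-kB targets themselves, so that the pathway holds feedback loops. In adipose tissue NF-kB is known for its place in inflammation and insulin resistance.

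The upstream sequence of 3 members is shown because it holds matches to the kB consensus, the sequence pattern that NF-kB recognizes. The mRNAs of these genes also behaved differently below. Each line gives the 250 bases before the RefSeq transcription start, read 5′ to 3′ on the gene's strand, with kB consensus matches in capitals. The consensus searched was GGGRNNYYCC, where R is A or G, Y is C or T and N is any base. A match can lie on either strand. The sequences are those of the RefSeq promoter table (GRCm38.p6). Each matched its own chromosome in NCBIM37, the build of the deposited counts (mm9), at 1 place on the gene's strand without a mismatch. Other chromosomes were not searched. Nfkbie lies at chr17:45692399-45692648 on the plus strand, Nfkbia at chr12:56593635-56593884 on the minus strand and Nfkb2, by the first of its 3 entries, at chr19:46378977-46379226 on the plus strand. Each stretch lies upstream of the first base annotated for its gene in GENCODE vM1.
Nfkbie: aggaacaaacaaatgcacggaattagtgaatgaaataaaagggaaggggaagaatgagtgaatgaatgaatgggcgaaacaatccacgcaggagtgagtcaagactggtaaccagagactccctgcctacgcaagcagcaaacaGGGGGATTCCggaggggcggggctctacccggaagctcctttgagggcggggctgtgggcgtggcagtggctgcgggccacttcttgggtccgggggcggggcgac
Nfkbia: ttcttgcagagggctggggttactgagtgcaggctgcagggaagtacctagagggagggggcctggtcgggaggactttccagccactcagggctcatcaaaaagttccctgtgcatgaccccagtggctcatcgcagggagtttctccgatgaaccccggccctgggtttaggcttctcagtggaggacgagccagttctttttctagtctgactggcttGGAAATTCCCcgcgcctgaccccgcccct
Nfkb2: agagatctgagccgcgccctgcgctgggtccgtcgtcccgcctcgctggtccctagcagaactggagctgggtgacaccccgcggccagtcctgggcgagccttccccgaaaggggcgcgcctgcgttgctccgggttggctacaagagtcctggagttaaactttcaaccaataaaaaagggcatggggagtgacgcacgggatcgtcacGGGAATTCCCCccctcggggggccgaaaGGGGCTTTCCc

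In Nfkbie the match is GGGGGATTCC, at −106 to −97 from the start. In Nfkbia it is GGAAATTCCC at −29 to −20, written on the gene's strand and matched on the opposite strand. Nfkb2 has overlapping matches at −39 to −29 and GGGGCTTTCC at −11 to −2. Its other 2 entries lie downstream and share a GGGACTTTCC site. For Tnfaip3 the window of the first entry falls almost wholly inside the annotated gene, and of it only the matches are given. These are GGGACACCCC at −125 to −116 and, matched on the opposite strand, GGAAATCCCC at −12 to −3. Rel has overlapping matches at −92 to −82. Neither the Rela and Nfkbib windows nor that of the second Tnfaip3 entry held a match, which says only that these letters are not in this window. Both strands were searched from 250 bases before to 50 after the start. Of 32851 mouse promoters in the table, 2779 (8.46%) held a consensus match. The members had 10 entries for 7 genes. Nfkb1, Relb and Nfkbiz have no entry. CpG dinucleotides, the usual substrate of Dnmt3a, numbered 6 to 42 in these 10 windows of 300 bases, against a median of 7 over all promoters. They numbered 42 in Rel, 31 in Rela, 16 in Nfkbie and 15 in Nfkbia. Neither methylation nor binding of NF-kB was measured in these libraries.

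Total counts were 29084732 to 47341091 per library. The unit of level is CPM, in which counts are divided by TMM-adjusted library size over the 12 libraries, or CPM per kilobase of the deposited feature length where genes are set against each other. Dnmt3a stood at 2730 to 2776 CPM in the Dnmt3a libraries against 90.7 to 96.6 in GFP, and at 39.3 to 41.0 in shDnmt3a against 78.5 to 86.3 in shScr. The adipocyte label held in every library. The 11 adipocyte markers summed to 23906 to 25229 CPM in GFP, 30078 to 30319 in Dnmt3a, 20649 to 21612 in shScr and 19916 to 20553 in shDnmt3a. The 9 markers of preadipocytes and fibroblasts summed to 868 to 1136 CPM over all libraries, and the 11 of macrophages and leukocytes to 20.3 to 32.4 CPM. Emr1 and Tyrobp had no count in any library. The 5 endothelial markers were each under 1 CPM in every group.

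Every member found in the table was expressed in these adipocytes. In the GFP group, per kilobase, Nfkbia was highest at 25.8 ± 0.89 CPM (SD, n = 3), followed by Rela at 21.1 ± 0.97 and Nfkb1 at 19.1 ± 0.77. The ranges of Rela and Nfkb1 did not overlap. Relb stood at 10.1 ± 0.88 CPM per kilobase, Tnfaip3 at 7.25 ± 0.43 and Nfkbie at 5.97 ± 1.18, whose ranges overlapped for the last pair. Nfkbib (2.97 ± 0.024) and Nfkb2 (2.91 ± 0.092) had overlapping ranges, and Rel, the subunit best known from lymphocytes, was lowest at 1.33 ± 0.15. The IkappaB-zeta row stood at 15.9 ± 0.53. These values rest on the deposited lengths, which differ from the exons annotated in GENCODE vM1 for Nfkb2 (1762 against 3289 bases), Tnfaip3 (4594 against 7226) and Nfkbib (3050 against 2169).

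**Figure D1:**
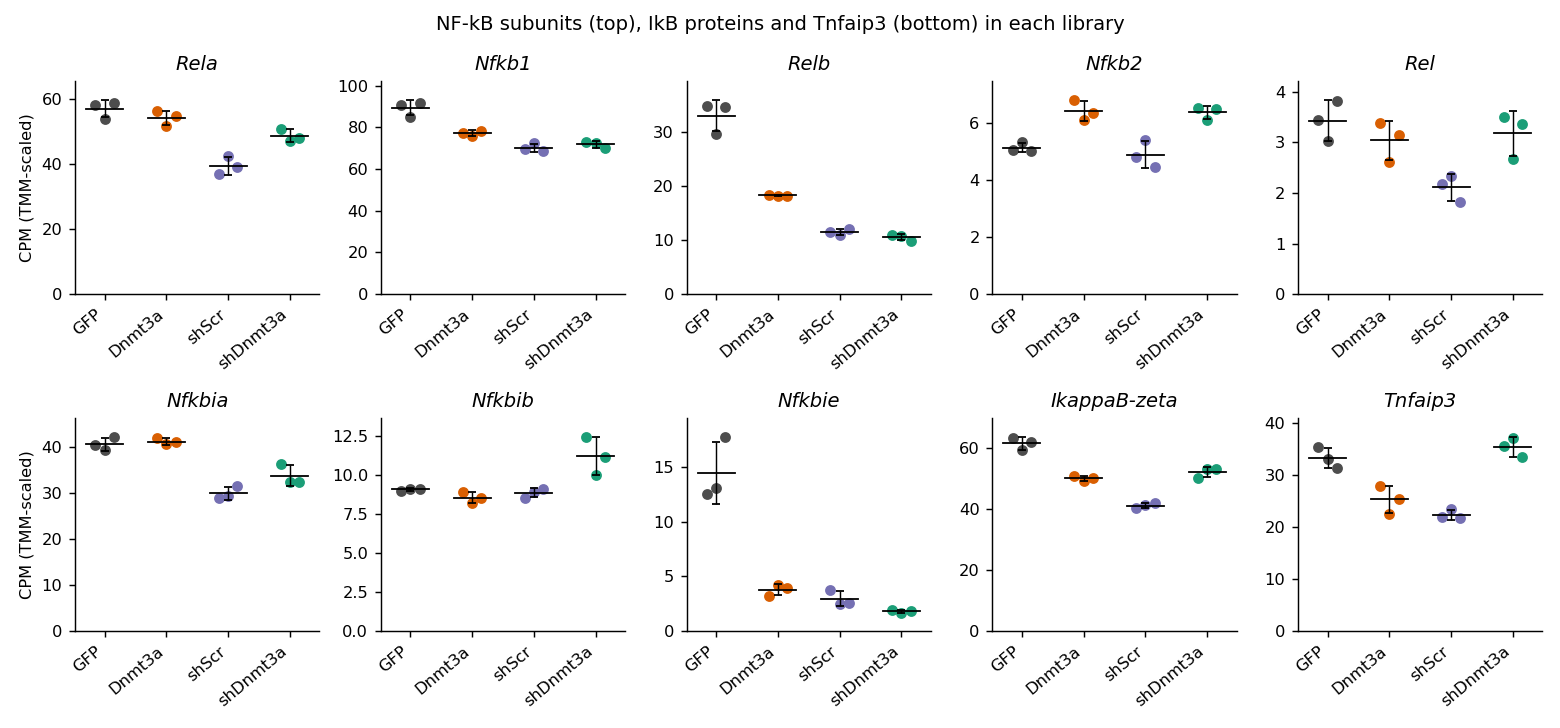
Level of each subunit (top row), each IkB protein, the IkappaB-zeta row and Tnfaip3 (bottom row) in the 12 libraries, in TMM-scaled CPM on linear axes that start at 0. Points are libraries, horizontal lines are group means and error bars are the SD of 3 libraries. Nfkbie and Relb are highest in the GFP libraries, and Tnfaip3 is lower in Dnmt3a and shScr than in GFP and shDnmt3a.

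The comparison of Dnmt3a with GFP asked which genes respond to more Dnmt3a, and that of shDnmt3a with shScr which respond to less of it. Both were tested with edgeR's quasi-likelihood test and Benjamini-Hochberg adjustment over all genes tested, and a gene was called higher or lower at an adjusted p under 0.05. In these bulk samples, fewer cells of a type and less RNA per cell cannot be told apart.

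On overexpression, 4 of the 9 members were lower (Nfkbie, Relb, Tnfaip3, Nfkb1) and 1 was higher (Nfkb2), while Rela, Rel, Nfkbia and Nfkbib were not called. Over all 14168 genes tested, 27.2% were called, 14.3% higher and 12.9% lower. The median log2 fold change of the 9 members was −0.15, against −0.01 over all genes. On knock-down, 6 of the 9 were higher (Tnfaip3, Rel, Nfkb2, Nfkbib, Rela, Nfkbia) and 1 was lower (Nfkbie), and Nfkb1 and Relb were not called. Here 45.8% of 14115 genes were called, 23.3% higher and 22.5% lower, beside 7 of the 9 members. The median of the members was 0.30, against 0.00 over all genes. Adipocyte markers moved in both comparisons. Of the 11, 10 were higher in Dnmt3a than in GFP. On knock-down 3 were higher and 4 lower than in shScr, with a median of −0.04. The part of these markers in the results for the members was not tested.

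Rela, which encodes the p65 subunit with its activation domain, was not called on overexpression. It stood at 58.2, 54.1 and 58.9 CPM in the GFP libraries and at 56.3, 51.9 and 54.7 in Dnmt3a. These ranges overlapped, and the log2 fold change of −0.07 had a 95% interval of −0.16 to 0.03. It stood at 36.9, 42.4 and 39.2 CPM in shScr and at 51.0, 47.2 and 48.0 in shDnmt3a, with no overlap. Rela thus rose on knock-down, by a log2 fold change of 0.30 (standard error 0.055, edgeR adjusted p = 0.000151). In order of level, GFP and Dnmt3a were highest and did not differ beyond their spread, followed by shDnmt3a and then shScr.

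Nfkb1, the p105 precursor of p50, fell slightly on overexpression. Its level was 90.8, 85.1 and 91.8 CPM in GFP and 77.4, 75.6 and 78.4 CPM in Dnmt3a, so every Dnmt3a library was below every GFP library. The log2 fold change was −0.21 (standard error 0.041, edgeR adjusted p = 0.000224). In shScr it was 69.4, 72.3 and 68.5 CPM and in shDnmt3a 73.1, 72.5 and 70.0. These overlapped, and the log2 fold change on knock-down, 0.04, had an interval of −0.05 to 0.12. The order was GFP, then Dnmt3a, then shDnmt3a and shScr, which overlapped.

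Relb, the partner of p52 in the non-canonical pathway, was the subunit that fell most on overexpression. It stood at 34.7, 29.7 and 34.5 CPM in GFP and at 18.3, 18.2 and 18.2 in Dnmt3a. The Dnmt3a libraries agreed closely and all lay well below GFP, with a log2 fold change of −0.85 (standard error 0.063, edgeR adjusted p = 1.14e-12). By absolute log2 fold change Relb ranked 203 of the 14168 genes tested. In shScr it was lower still, at 11.5, 11.005 and 12.1 CPM, and in shDnmt3a it was 10.9, 10.8 and 9.87. The shDnmt3a libraries lay just below the shScr libraries, but the log2 fold change of −0.13 (interval −0.29 to 0.03, edgeR adjusted p = 0.190) did not pass the test. By library ranges the order was GFP, Dnmt3a, shScr, shDnmt3a. Dnmt3a and shScr were not tested against each other, and the last pair was not separated by its test.

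Nfkb2, which encodes p100 and thus both an inhibitor and the precursor of p52, went against Relb. It stood at 5.06, 5.31 and 5.01 CPM in GFP and at 6.78, 6.08 and 6.35 in Dnmt3a, above every GFP library. The log2 fold change was 0.33 (standard error 0.10, edgeR adjusted p = 0.0147), and without Dnmt3a replicate 1 it was 0.29 and no longer called (edgeR adjusted p = 0.0709). In shScr it stood at 4.78, 5.38 and 4.47 CPM and in shDnmt3a at 6.51, 6.10 and 6.48, again without overlap. On knock-down Nfkb2 also rose, by 0.38 (standard error 0.10, edgeR adjusted p = 0.00540). Nfkb2 was the member that was higher in both comparisons, with Dnmt3a up and with Dnmt3a down. Its annotated exons share 4 bases with the opposite-strand gene Psd, and the strand setting of the counting is not stated. Dnmt3a and shDnmt3a were the higher groups and overlapped, as did GFP and shScr below them.

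Rel, which encodes c-Rel, was the least abundant subunit per kilobase in every group but was above the count filter in every comparison. It stood at 3.44, 3.03 and 3.82 CPM in GFP and at 3.38, 2.62 and 3.14 in Dnmt3a, which overlapped. The log2 fold change on overexpression, −0.15, had a wide interval of −0.44 to 0.13. It stood at 2.18, 2.34 and 1.81 CPM in shScr and at 3.51, 2.68 and 3.36 in shDnmt3a. On knock-down every library was above its controls, and Rel rose by a log2 fold change of 0.58 (standard error 0.15, edgeR adjusted p = 0.00438), the largest rise among the subunits there. The shScr group was the lowest of the 4, and the ranges of the other 3 overlapped.

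**Figure D2:**
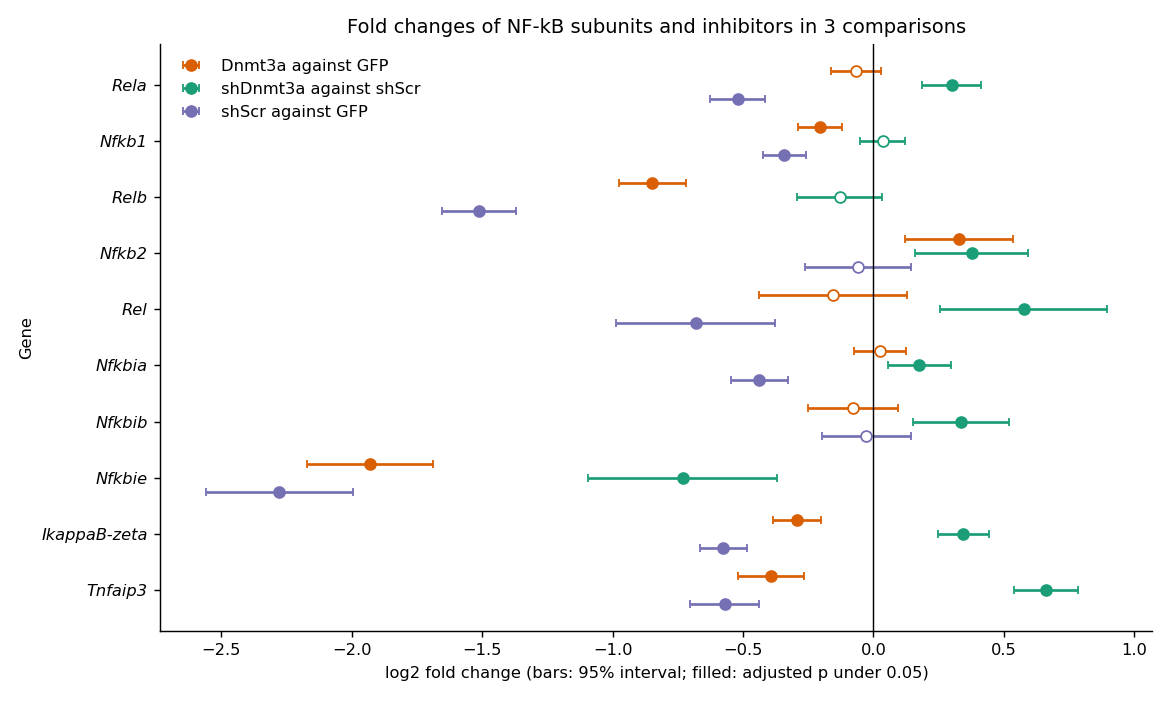
Log2 fold change of each gene on the horizontal axis in Dnmt3a against GFP (orange), shDnmt3a against shScr (green) and shScr against GFP (purple), with 95% intervals; filled points have an adjusted p under 0.05. Nfkbie lies left of 0 in all 3 comparisons, whereas Tnfaip3 lies at −0.39 on overexpression and at 0.66 on knock-down.

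Among the inhibitors, Nfkbie changed most. Its mRNA encodes IkB epsilon, an inhibitor that NF-kB itself can induce. It stood at 12.6, 13.0 and 17.7 CPM in GFP and at 3.20, 4.17 and 3.92 in Dnmt3a. In CPM the GFP libraries spread most, with an SD of 2.86 around a mean of 14.4, against 0.70 around 2.95 in shScr. Replicate 3 was the highest of the GFP libraries, yet all of them lay far above Dnmt3a. The log2 fold change was −1.93 (standard error 0.12, edgeR adjusted p = 9.70e-15), and Nfkbie ranked 8 by size of change among the 14168 genes, a list that Dnmt3a itself led. In shScr it stood at 3.75, 2.50 and 2.59 CPM and in shDnmt3a at 1.87, 1.64 and 1.83. It fell there too, by 0.73 on the log2 scale (standard error 0.17, edgeR adjusted p = 0.00173). Nfkbie was thus the member that was lower in both comparisons. The order was GFP, Dnmt3a, shScr, shDnmt3a, in which the ranges of Dnmt3a and shScr overlapped.

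Nfkbia, which encodes the main feedback inhibitor IkB alpha, was not called on overexpression. It stood at 40.4, 39.5 and 42.2 CPM in GFP and at 42.0, 40.7 and 41.1 in Dnmt3a, with an interval of −0.08 to 0.13 for the log2 fold change. It stood at 28.9, 29.5 and 31.5 CPM in shScr and at 36.5, 32.5 and 32.5 in shDnmt3a. The rise on knock-down was 0.18 (standard error 0.058, edgeR adjusted p = 0.0183), and it rested on single libraries. It was 0.15 without shScr replicate 1 (edgeR adjusted p = 0.059), 0.16 without shScr replicate 2 (edgeR adjusted p = 0.0612) and 0.12 without shDnmt3a replicate 1 (edgeR adjusted p = 0.127). Both Nfkbia and Nfkbie have a consensus match in the windows above, and their log2 fold changes were on opposite sides of 0 on knock-down. The part of these sites in the fold changes was not tested. The order for Nfkbia was GFP and Dnmt3a, which overlapped, then shDnmt3a, then shScr.

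Nfkbib encodes IkB beta, which binds Rela and Rel dimers. It stood at 8.98, 9.09 and 9.12 CPM in GFP, at 8.91, 8.17 and 8.53 in Dnmt3a and at 8.54, 8.93 and 9.10 in shScr, and these 3 groups lay close together. The overexpression log2 fold change was −0.08 (interval −0.25 to 0.09), although each Dnmt3a library was below each GFP library. The shDnmt3a libraries stood apart at 12.4, 10.01 and 11.2 CPM. Nfkbib was higher on knock-down by 0.34 (standard error 0.088, edgeR adjusted p = 0.00394). Its exons share 42 annotated bases with the opposite-strand gene Sirt2.

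Tnfaip3 and the IkappaB-zeta row were lower with more Dnmt3a and higher with less. Tnfaip3 stood at 35.4, 33.1 and 31.4 CPM in GFP and at 27.9, 22.6 and 25.5 in Dnmt3a. It stood at 21.9, 23.4 and 21.7 CPM in shScr and at 35.5, 37.2 and 33.4 in shDnmt3a. Neither pair of groups overlapped. The log2 fold change was −0.39 on overexpression (standard error 0.062, edgeR adjusted p = 7.52e-06), and it was 0.66 for knock-down (standard error 0.059, edgeR adjusted p = 2.00e-08). In order of level shDnmt3a and GFP came first, with overlapping ranges, then Dnmt3a and shScr, whose ranges also overlapped. The IkappaB-zeta row, at 63.5, 59.4 and 62.0 CPM in GFP and 50.9, 49.2 and 50.3 in Dnmt3a, was lower on overexpression by −0.29 on the log2 scale (standard error 0.045, edgeR adjusted p = 3.95e-06). It stood at 40.3, 41.2 and 42.1 CPM in shScr and at 50.3, 53.2 and 53.3 in shDnmt3a. On knock-down it was higher by 0.34 (standard error 0.047, edgeR adjusted p = 5.35e-06).

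Library by library, 1 member was above and 5 were below all GFP libraries in Dnmt3a, where 39.3% of all genes tested had groups that did not overlap. On knock-down 6 were above and 2 below, against 52.9% of all genes. Whether a fold change on knock-down differed from that on overexpression was tested in 1 edgeR fit of all 12 libraries. By its arithmetic this contrast includes shScr against GFP with its sign turned, so it is not independent of the control comparison below. The difference of the fold changes was above 0 for all 9 members and was called for 7 of them (Tnfaip3, Nfkbie, Rel, Relb, Nfkbib, Rela, Nfkb1). None was called in the negative direction, with 0 also at an unadjusted p under 0.05 and 0 by DESeq2. Over all 14491 genes tested, 40.3% were called, 19.9% in the positive and 20.4% in the negative direction. The difference was 1.04 for Tnfaip3 (standard error 0.091, edgeR adjusted p = 1.63e-10) and 0.71 for Relb (standard error 0.10, edgeR adjusted p = 1.44e-06). For Nfkbie it was 1.19 (standard error 0.24, edgeR adjusted p = 0.000156), since the fall on overexpression was larger than that on knock-down. For Nfkb2 the difference was 0.04 with an interval of −0.24 to 0.32, and for Nfkbia 0.14 with an interval of −0.01 to 0.30.

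The control groups themselves differed. In shScr against GFP, 7 of the 9 members were lower and 0 were higher, also 0 at an unadjusted p under 0.05 and 0 by DESeq2. Of 14491 genes, 46.5% were called, 22.8% lower and 23.7% higher. All 3 shScr libraries lay below all 3 GFP libraries for these 7 members, where 51.8% of all genes had groups that did not overlap. Nfkbie was lower by a log2 fold change of −2.28 (standard error 0.14, edgeR adjusted p = 3.55e-14) and Relb by −1.51 (standard error 0.069, edgeR adjusted p = 4.94e-17). For Rel it was −0.68, for Tnfaip3 −0.57, for Rela −0.52, for Nfkbia −0.44 and for Nfkb1 −0.34. The IkappaB-zeta row stood at −0.58. Nfkb2 (−0.06, interval −0.26 to 0.15) and Nfkbib (−0.03, interval −0.20 to 0.15) were not called. Vector, insert, virus and culture cannot be told apart in this comparison. It shares the GFP libraries with the overexpression comparison and the shScr libraries with the knock-down comparison, so its fold changes are not independent of theirs. For 6 of the 9 members (Nfkbie, Relb, Rel, Rela, Nfkbia, Nfkb1) and for the IkappaB-zeta row, the log2 fold change between the controls was larger in size than that in either comparison with Dnmt3a, a difference in size that was not tested.

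The make-up of the subunit pool differed between groups. Per kilobase, the 5 subunits summed to 51.5 to 56.3 CPM in GFP, 45.4 to 48.1 in Dnmt3a, 35.6 to 38.5 in shScr and 40.7 to 42.9 in shDnmt3a, without overlap between groups. Relb made up 18.5% ± 0.74 of the sum in GFP (SD, n = 3), 11.9% ± 0.33 in Dnmt3a, 9.66% ± 0.79 in shScr and 7.79% ± 0.35 in shDnmt3a. Nfkb2 made up 5.35% ± 0.44 in GFP and 7.74% ± 0.22 in Dnmt3a. In shScr its share was 7.53% ± 0.47 and in shDnmt3a 8.72% ± 0.28. Neither share overlapped between groups in either comparison, and in both the share of Relb was lower and that of its partner Nfkb2 higher with Dnmt3a raised or lowered. A share also moves with the other subunits in the sum. On knock-down Relb itself was not called (log2 fold change −0.13), whereas Rela, Rel and Nfkb2 were higher. Rela took 38.6% ± 0.13 in GFP and 42.7% ± 0.50 in Dnmt3a, and 39.7% ± 1.24 in shScr and 43.4% ± 0.60 in shDnmt3a. No test was run on these shares.

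In the inhibitor pool the share of Nfkbie differed most between GFP and the other groups. Nfkbia, Nfkbib and Nfkbie summed to 33.4 to 37.1 CPM per kilobase in GFP, 30.2 to 30.9 in Dnmt3a, 22.6 to 24.0 in shScr and 24.5 to 27.9 in shDnmt3a. Nfkbie made up 17.1% ± 2.34 of the sum in GFP, 5.11% ± 0.74 in Dnmt3a, 5.29% ± 1.35 in shScr and 2.85% ± 0.15 in shDnmt3a. Nfkbia made up 74.3% ± 1.93 of the sum in GFP and 85.7% ± 0.46 in Dnmt3a. The ratio of the inhibitor sum to the subunit sum was 0.588 to 0.665 over the 12 libraries, and the ranges of all 4 groups overlapped. It stood at 0.605 to 0.658 in GFP, 0.641 to 0.665 in Dnmt3a, 0.588 to 0.665 in shScr and 0.602 to 0.652 in shDnmt3a. These are mRNA levels, and protein was not measured in these libraries.

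**Figure D3:**
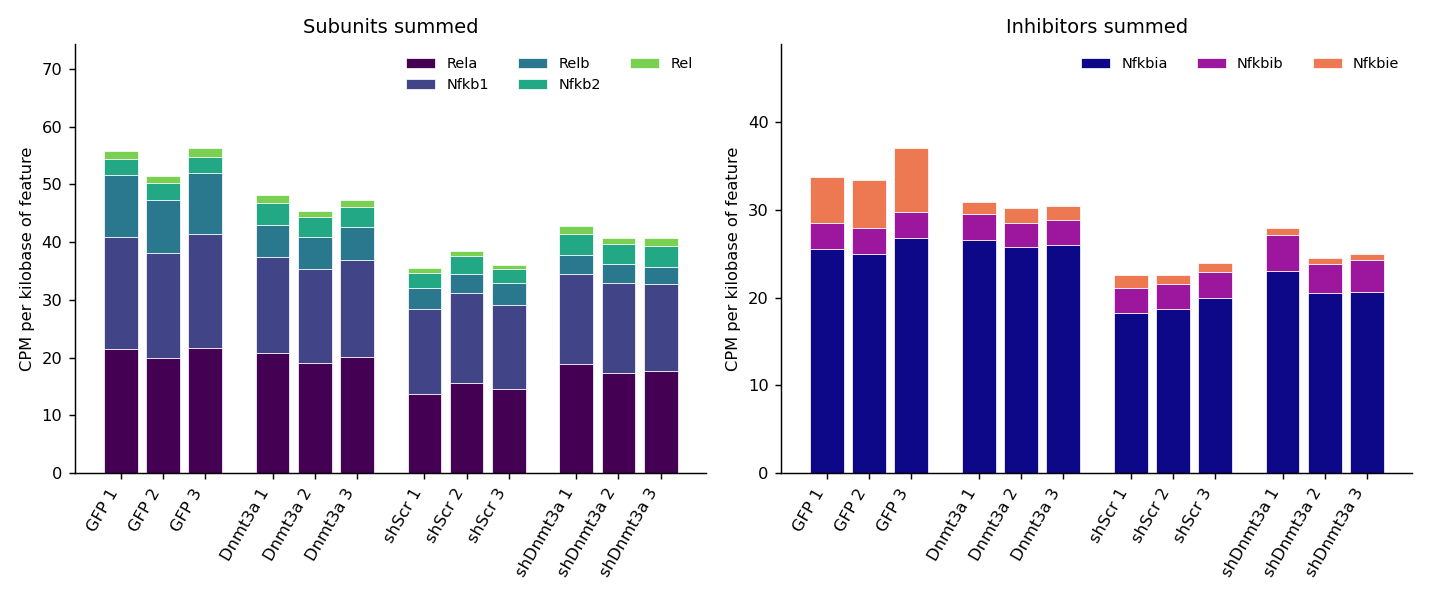
Summed level of the 5 subunits (left) and of Nfkbia, Nfkbib and Nfkbie (right) in each library, in CPM per kilobase of feature, with bars from 0 divided by gene. The Relb and Nfkbie sections shrink from GFP to the other groups, and the subunit sums fall in separate ranges from 51.5 to 56.3 in GFP down to 35.6 to 38.5 in shScr.

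The rest of the pathway was read from lists grouped by role. Ligand mRNAs were scarce in these cells. Of 12 ligands, 11 were in the table and 6 passed the count filter. None of these 6 was called in either comparison, with 0 at an unadjusted p under 0.05 and 0 by DESeq2. The 11 ligands summed to 5.24 to 7.002 CPM over all libraries, and Tnf itself was at most 0.01 CPM on average in each group. Il1b, the gene of interleukin 1 beta, stood at 1.78 to 2.34 CPM on average per group.

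Of 19 receptors, 13 were tested. On overexpression 4 were lower and 0 higher (2 at an unadjusted p under 0.05, 0 by DESeq2), with a median log2 fold change of −0.06. That was 30.8% of those tested, beside 27.2% of all genes. Tlr2, a receptor of bacterial lipoproteins, fell from 24.8, 24.3 and 24.7 CPM in GFP to 15.9, 14.6 and 16.5 in Dnmt3a, a log2 fold change of −0.64 (edgeR adjusted p = 1.08e-09). Il1rap, the accessory chain of the interleukin 1 receptor, fell by 0.43 on the log2 scale (edgeR adjusted p = 9.33e-06). On knock-down 2 receptors were higher and 3 lower, and the median was 0.04. These were 38.5%, beside 45.8% of all genes. Tnfrsf1b, a TNF receptor, was lower on overexpression (−0.43, edgeR adjusted p = 0.000264) and higher on knock-down (0.44, edgeR adjusted p = 5.39e-05), the same directions as Tnfaip3. Tlr3, which senses double-stranded RNA, was lower on knock-down (−0.48, edgeR adjusted p = 1.93e-07), and so was Ltbr, the lymphotoxin beta receptor of the non-canonical pathway (−0.23, edgeR adjusted p = 8.58e-05).

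Among 23 adaptors and ubiquitin ligases, 7 of 21 tested were lower on overexpression and 0 higher (1 at an unadjusted p under 0.05, 0 by DESeq2). By DESeq2 5 were lower there. On knock-down 7 of 20 were higher and 3 lower. The called shares were 33.3% and 50%, beside 27.2% and 45.8% of all genes, and the medians were −0.07 and 0.03. Birc3, a ubiquitin ligase of the TNF receptor complex, had a log2 fold change of −0.51 on overexpression (edgeR adjusted p = 1.16e-05). Traf1, another partner of TNF receptors, had one of −1.54 (edgeR adjusted p = 0.000601), at 0.57 to 1.17 CPM in GFP and 0.23 to 0.35 in Dnmt3a. Ripk1, the kinase scaffold of the TNF receptor complex, was lower on overexpression by −0.15 (edgeR adjusted p = 0.00577) and higher on knock-down by 0.24 (edgeR adjusted p = 3.43e-05). Ticam1 (0.39, edgeR adjusted p = 3.64e-05) and Traf6 (0.35, edgeR adjusted p = 8.96e-06), adaptors of Toll-like receptors, were higher on knock-down.

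All 11 IkB kinase and upstream kinase genes were tested. On overexpression 1 was higher and 2 lower (median −0.05), and on knock-down 3 were higher and 1 lower (median 0.02). The called shares, 27.3% and 36.4%, were at and below the 27.2% and 45.8% of all genes. Map3k14, which encodes NIK, the kinase that starts processing of p100, stood at 17.4, 17.1 and 17.0 CPM in GFP and at 10.6, 10.8 and 11.4 in Dnmt3a. It thus fell together with Relb on overexpression, by a log2 fold change of −0.65 (edgeR adjusted p = 1.04e-08). On knock-down its value was −0.19 and it was not called. In shScr it stood at 10.9, 9.72 and 11.1 CPM, a range that overlapped that of Dnmt3a. The annotated exons of Map3k14 share 135 bases with the same-strand gene 1700028N14Rik. Tab2, an adaptor of the kinase TAK1, was lower on overexpression (−0.19, edgeR adjusted p = 0.00100) and higher on knock-down (0.33, edgeR adjusted p = 1.80e-06). Tab1 was lower on knock-down (−0.21, edgeR adjusted p = 0.00409). Ikbkg, the scaffold NEMO of the kinase complex, was higher in both (0.15, edgeR adjusted p = 0.00276, and 0.24, edgeR adjusted p = 3.59e-05), but its exons share 418 bases with the opposite-strand gene G6pdx. The catalytic subunit genes Chuk and Ikbkb had values of −0.01 and −0.06 on overexpression and of 0.02 and −0.03 on knock-down.

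Of 17 other IkB proteins and brakes, 15 were tested. On overexpression 1 was higher and 3 lower, with changes no larger than 0.24 on the log2 scale and a median of −0.03, and by DESeq2 1 was higher and 0 lower. On knock-down 3 were higher and 6 lower (3 and 5 by DESeq2), with a median of −0.06. The called shares were 26.7% and 60%, beside 27.2% and 45.8% of all genes. Tnip1, a partner of Tnfaip3, was higher on knock-down (0.33, edgeR adjusted p = 1.08e-05), and so was the deubiquitinase Cyld (0.35, edgeR adjusted p = 3.62e-07), whereas Rnf11, another protein of the Tnfaip3 complex, was lower (−0.34, edgeR adjusted p = 4.14e-07). On overexpression Commd1 was higher (0.15, edgeR adjusted p = 0.00710). Pdlim2 (−0.24, edgeR adjusted p = 0.0281), N4bp1 (−0.13, edgeR adjusted p = 0.0382) and Tnip1 (−0.10, edgeR adjusted p = 0.0496) were lower there by edgeR and not by DESeq2.

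Of 37 known NF-kB target genes, 30 were tested on overexpression and 30 on knock-down. On overexpression 18 were lower and 2 higher (15 and 2 by DESeq2), with a median of −0.33. Over all genes, 12.9% were lower and 14.3% higher. On knock-down 10 were lower and 10 higher, with a median of 0.01, beside 22.5% and 23.3% of all genes. The controls differed for the targets too. In shScr against GFP, 21 of 31 tested were lower and 6 higher (18 and 6 by DESeq2), with a median of −0.72. Over all genes 22.8% were lower and 23.7% higher there. The part of this difference in the results for the targets was not tested. Csf1, the macrophage colony-stimulating factor, stood at 133, 128 and 132 CPM in GFP and at 70.1, 66.4 and 71.9 in Dnmt3a, a log2 fold change of −0.91 (edgeR adjusted p = 1.74e-18). It was lower on knock-down too, at −0.82, as Nfkbie was. Ptx3, a secreted pattern-recognition protein, had a log2 fold change of −1.21 on overexpression (edgeR adjusted p = 2.35e-18), and Gadd45b, a stress-response gene, one of −1.56 (edgeR adjusted p = 2.03e-15). On knock-down Steap4, a metalloreductase, stood at 281, 286 and 298 CPM against 124, 118 and 117 in shScr, a log2 fold change of 1.27 (edgeR adjusted p = 1.42e-15). Ier3, an early-response gene, was higher by 1.31 (edgeR adjusted p = 1.03e-11), and Sod2, mitochondrial superoxide dismutase, was lower (−0.58, edgeR adjusted p = 8.20e-11). Of the 8 macrophage and leukocyte markers tested, Cd53 and Cd68 were higher and Cd74 was lower on overexpression. Of the 9 markers of preadipocytes and fibroblasts, 4 were lower there, among them Col1a1 (−0.50, edgeR adjusted p = 8.00e-11), Dlk1 (−0.46, edgeR adjusted p = 1.70e-05) and Acta2 (−0.32, edgeR adjusted p = 3.51e-06), and 1 was higher. The part of these markers in the results for the targets was not tested.

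**Figure D4:**
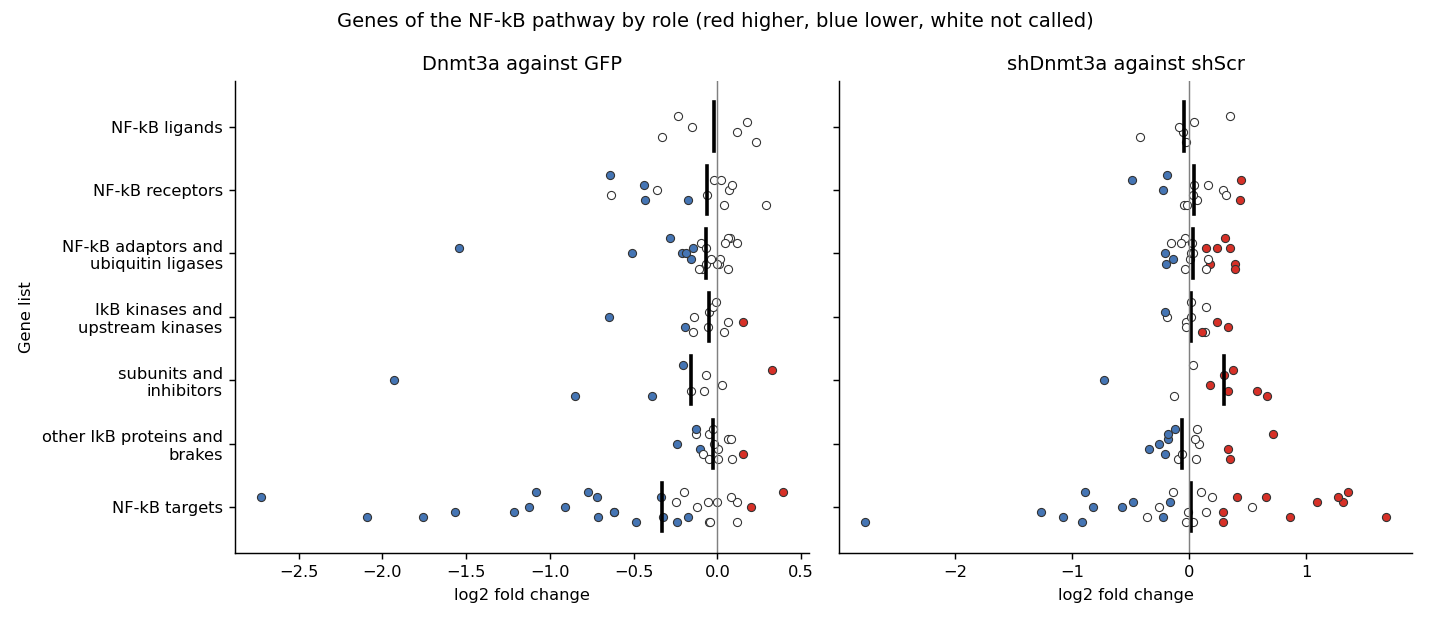
Log2 fold change of every tested gene of the pathway in Dnmt3a against GFP (left) and shDnmt3a against shScr (right), in rows by role. Points are genes, coloured where called higher (red) or lower (blue), and black bars are medians; the median of the target genes lies at −0.33 on the left and at 0.01 on the right.

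Across the 12 libraries, the members' log2 CPM followed different orders. These correlations are descriptions over libraries that share groups and depth. Nfkb1 and Relb were most alike (Pearson r = 0.960), followed by Relb and Nfkbie (0.951) and by Rela and Nfkbia (0.931). The lowest values were −0.451 for Nfkb2 and Nfkbie, −0.445 for Nfkbib and Nfkbie and −0.429 for Relb and Nfkbib. Among 12036 genes with a mean of at least 1 CPM, those most like Relb were Top2a (0.990), Abcb1b (0.987) and Thbs1 (0.984). For Nfkb1 they were Psd (0.977), Thbs1 (0.975) and Ly75 (0.971), so that Thbs1 was shared by this pair. For Nfkbie they were AK160548 (0.986), Nbea (0.976) and Nop58 (0.967), and for Tnfaip3 they were Arhgap20 (0.972), Skil (0.958) and Tcf12 (0.958). Rela was most like Cish (0.980), Brca2 (0.980) and Slc41a1 (0.975), and Nfkbia most like Eif5a (0.977), Col6a2 (0.971) and Lrg1 (0.968). The highest values were lower for Nfkb2 (C130050O18Rik, 0.960), Nfkbib (Cdc42bpa, 0.943) and Rel (Gstcd, 0.928).

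The positions of the members are those of GENCODE vM1 on NCBIM37. Nfkb1 is at chr3:135247619-135354511, Rel at chr11:23641514-23670970, Nfkbia at chr12:56590398-56593634 and Tnfaip3 at chr10:18720716-18735463, all on the minus strand. Relb is at chr7:20191566-20214787 and Nfkbib at chr7:29543270-29552531, both on the minus strand. Rela is at chr19:5637483-5648130, Nfkb2 at chr19:46379227-46386580 and Nfkbie at chr17:45692665-45700118, on the plus strand.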

How the data were processed

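The 12 RNA-seq libraries came from 3T3-L1 adipocytes, 3 in each of 4 groups taken from the sample labels. According to the study's methods and the submitters' processing notes, the authors depleted ribosomal RNA, prepared TruSeq libraries, used TopHat2 (2.0.14) to align the reads to mm9 and counted them per feature with featureCounts (1.4.6). The deposited values are whole-number counts, not normalized. Of 27473 features, 7094 had no count in any library.

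Counts were scaled by TMM and tested with the quasi-likelihood test of edgeR (version 4.0.16, on R 4.3.3), with its default count filter (minimum count 10) and Benjamini-Hochberg adjustment over all genes tested. Calls were made at an adjusted p under 0.05. Dnmt3a against GFP and shDnmt3a against shScr were fitted on their own 6 libraries, and shScr against GFP and the difference of the fold changes in 1 fit of all 12. Standard errors are those that match the F statistic, and intervals are at 95%. edgeR's common biological coefficient of variation was 3.98% and 4.03% in the 2 fits of 6 libraries. CPM per kilobase uses the deposited feature length.

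The members, the lists and the tests were chosen with earlier results of these data known. All members are named. Other genes come from the 3 of each list with the smallest p in the overexpression or the knock-down comparison. They also come from the 3 genes most correlated with each called member over the 12 libraries (log2 CPM, prior count 2). Not every gene picked by these rules is printed. Chuk, Ikbkb, Tnf, Vcam1, Emr1 and Tyrobp were added after their values were seen. Promoters came from a RefSeq table and were matched exactly to NCBIM37. Scripts were tested on simulated data. Alternatives were RLE size factors, DESeq2 (1.42.0), other filters, counts summed over features of a symbol, 1 fit of all 12 libraries, a replicate block, and leaving out each library in turn. Other data of the study were not analysed here.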

Additional observations from a re-analysis of the deposited data

Results flagged for a closer look

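For 7 members the log2 fold change on knock-down differed from that on overexpression in 1 edgeR fit of all 12 libraries. Tnfaip3 moved in opposite directions, lower in Dnmt3a than in GFP and higher in shDnmt3a than in shScr, with a difference of 1.04 (95% interval 0.86 to 1.23). Nfkbie was lower in both comparisons and fell less on knock-down, with a difference of 1.19 (0.71 to 1.68). Relb (0.71, 0.50 to 0.92) and Nfkb1 (0.23, 0.12 to 0.35) were called on overexpression and not on knock-down. Rel (0.72, 0.30 to 1.15), Nfkbib (0.41, 0.16 to 0.65) and Rela (0.36, 0.21 to 0.51) were called on knock-down and not on overexpression. The control groups from which these effects were read differed for 6 of these 7 members, all but Nfkbib. That control difference enters the contrast with its sign turned, and its part in the calls was not tested.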

How the results depend on the processing

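The counts of members called and of all genes called stayed within 1.5 times under RLE size factors, DESeq2, no filter, the stricter filter, summed counts, 1 fit of all 12 libraries and the replicate block, in 104 of 104 values. In those alternatives all 260 values of single members and of the IkappaB-zeta row kept their direction and their side of the threshold. The replicate numbers did not pair the libraries. Deviations of same-numbered libraries correlated at −0.016 to 0.0038 on overexpression and at −0.062 to −0.0016 on knock-down, and with the replicate block 4 members were lower and 1 higher on overexpression, and 6 higher and 1 lower on knock-down, as without it.

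Leaving out each library in turn, 0 to 1 members were higher on overexpression, the 0 being without Dnmt3a replicate 1, where Nfkb2 was not called. Members higher on knock-down were 5 to 6, with Nfkbia not called in the 3 cases given above. Members lower on overexpression stayed at 4, and those lower in shScr against GFP at 7. In 3 cases uncalled values changed sign. In shScr against GFP, Nfkbib ranged from −0.041 to 0.0042, above 0 without shScr replicate 1, and Nfkb2 from −0.14 to 0.00074, above 0 without shScr replicate 3. Nfkb2 ranged from −0.016, without shScr replicate 3, to 0.12 for the difference of the fold changes. The cause was not tested. With 1.64 to 4.17 CPM, Rel and, outside GFP, Nfkbie rest on the fewest reads, and their standard errors, 0.14 to 0.15 and 0.12 to 0.17, were the largest among the members in the overexpression and knock-down comparisons.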

Other observations

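Among the NF-kB targets, Steap4 and Sod2 stood at 119 and 310 CPM on average in shScr and at 289 and 208 CPM in shDnmt3a, so that they went in opposite directions. Vcam1, an adhesion molecule, stood at 404 to 590 CPM on average per group and was highest in shScr. It was chosen after its values were seen. Its log2 fold change was 0.00 on overexpression and −0.48 on knock-down.

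Markers of other cell types also moved on knock-down. Cd53 stood higher in shDnmt3a than in shScr by a log2 fold change of 1.94 (edgeR adjusted p = 1.92e-11) and Trem2 by 1.81 (edgeR adjusted p = 1.45e-08), whereas Mpeg1 was lower by −1.64 (edgeR adjusted p = 1.52e-12), all among macrophage and leukocyte markers. Of that list, 8 were tested, with 3 higher and 2 lower (3 and 1 by DESeq2). Among preadipocyte and fibroblast markers Ly6a was lower (−1.35, edgeR adjusted p = 6.46e-13), with 5 of 9 lower and 2 higher (5 and 0 by DESeq2). Over all genes, 22.5% were lower and 23.3% higher on knock-down. The part of these markers in the results for the members was not tested.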
